A study of Mus musculus with 69 samples.

Results

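The IL-7 response left in naive CD4+ T cells that carry a single Stat5a allele and no Stat5b was read from the mRNA of BBA mice. All genes in the count table of CD4+ cells were compared between 3 libraries of cells given IL-7 (replicates 1, 2 and 3) and 2 libraries of cells without cytokine (NC, replicates 1 and 2), which are 5 of the 69 samples of the series. A further BBA library titled NC was left out because other labels of the same sample name IL-7. Of the 24309 genes in the table, 10402 passed a filter on low counts over the 15 libraries of the fit and were tested.

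BBA mice are Stat5a+/- Stat5b-/-. They were compared with wild-type (WT) mice, with 3 NC and 3 IL-7 libraries, and with AAB mice, which are Stat5a-/- Stat5b+/-, with 2 NC and 2 IL-7 libraries. The knockout alleles are in the germline, so cells outside the T lineage carried them too and the T cells developed with them. In every group the cells came from adult mice, from lymph nodes and spleen combined, and were sorted as naive by surface antigens, being low in CD44. The labels give 12 to 16 hours of culture for each of these libraries. The study's methods instead have cells either processed directly ex vivo or cultured with cytokine, so the effects of IL-7 and of time in culture cannot be told apart. The samples of a group are biological replicates by the study's methods.

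IL-7 is a survival cytokine that stromal cells of lymphoid organs supply to resting T cells. Its receptor joins the IL-7 receptor alpha chain to the common gamma chain and activates the kinases JAK1 and JAK3, which phosphorylate the paralogs STAT5A and STAT5B. These enter the nucleus, bind DNA and induce genes such as Bcl2, which protects the cell from death, and Cish and Socs genes, which feed back on the receptor.

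The targeted genes were read first. Stat5a stood at 48.1 and 45.6 CPM (counts scaled to 1000000 of the TMM-normalized library total, as are all levels here) in the BBA NC libraries and at 47.4, 35.6 and 36.8 CPM with IL-7. It was 0.810 to 1.45 CPM in NC and 0.952 to 1.89 CPM with IL-7 in AAB. In WT it was 87.9, 77.3 and 39.0 CPM in NC replicates 1, 2 and 3 and 57.4, 63.8 and 33.8 CPM with IL-7. Replicate 3 of both WT groups lay near the BBA levels and below the other WT libraries. Stat5b was 95.4 and 105 CPM in BBA NC and 129.7, 128 and 135 CPM with IL-7, against 274 to 285 CPM in NC and 308 to 374 CPM with IL-7 in WT. All BBA libraries were thus below all WT libraries in Stat5b but not at 0, and the source of these reads was not tested. With IL-7 the level of Stat5b in BBA was higher by 0.39 ± 0.10 on the log2 scale (adjusted p = 0.00893, under 1.5-fold) and that of Stat5a differed by -0.23 ± 0.31 (adjusted p = 0.614). Here and below, ± after a log2 value is an approximate standard error, taken as the absolute value over the square root of the test's F. Adjusted p is the quasi-likelihood p of edgeR after Benjamini-Hochberg adjustment over all genes tested.

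Some libraries stood apart in ways that the groups do not explain. The BBA libraries held 9152679 to 16289837 counts and the 15 libraries 6705004 to 34118295 (median 10818161). Libraries of a group differed by 6.04 to 24.98 times the counting noise (chi-square per degree of freedom), so none was the same library sequenced again. This measure cannot tell separate mice from separate preparations of the same mouse. Prnp, the prion protein gene, had 17 and 25 counts in the BBA NC libraries but 22216, 16 and 13669 counts in IL-7 replicates 1, 2 and 3. Over the 15 libraries it was at 0.783 to 6.05 CPM in 9 and at 489.9 to 2418 CPM in 6. There were 6 genes over 10-fold apart between every library of one set and every library of the other. All BBA NC libraries were in the low set and 2 of the 3 IL-7 libraries in the high set. IL-7 replicates 1 and 3 were high and IL-7 replicate 2 was low in every genotype that had them, and of the NC libraries WT replicate 3 was high. Results are therefore also given for the 9 low libraries alone, a comparison chosen after seeing the data. It leaves 1 IL-7 library a genotype and 3 residual degrees of freedom and takes the lone library to vary like the other groups. The summed level of B cell markers was 166 CPM in IL-7 replicate 1 against 30.3 to 59.3 CPM in the other BBA libraries. NK cell markers summed to 74.8 and 110.3 CPM in NC and 50.2, 52.4 and 99.7 CPM with IL-7. The last of these libraries held Ncr1 (4.17 CPM, with no count in the other BBA libraries), Gzma (21.7 CPM, at most 0.439 CPM in the others) and Xist (7.73 CPM, at most 0.481 CPM in the others). CD8 T cell markers summed to 43.9 to 108.9 CPM in BBA against 18.7 to 28.7 CPM in WT, and erythroid markers to at most 1.97 CPM in BBA. The CD4 T cell markers were present throughout and lower with IL-7, at 3563 and 3753 CPM in NC and 2468 to 2762 CPM with IL-7. Since the libraries are bulk samples, fewer cells of a type and less RNA per cell cannot be told apart, and the part of these cells in the results was not tested.

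In BBA cells 802 genes rose with IL-7 and 612 fell, each by more than 1.5-fold with an adjusted p under 0.05. These were 7.71% and 5.88% of the genes tested, or 13.6% together. The counts of list members in BBA given below are to be read against these shares. The survival gene Bcl2, the PIM kinases Pim1 and Pim2, the trafficking genes Klf2 and S1pr1 and the cytokine receptor genes Il10ra and Ifngr1 rose. The Notch pathway gene Dtx1, the transporter gene Slc16a5, the mTORC1 inhibitor gene Ddit4 and the immediate early genes Fos, Jun, Egr2 and Egr3 fell. Leaving out single BBA libraries gave 1017 to 1567 calls, the lowest without NC replicate 2, and 62.7% to 89.0% of the 1414 calls were then made again. In the 9 libraries low in Prnp 811 genes were called, 685 of them among the 1414. Of the genes described here Fos, Jun, Ddit4, Hspa1a, Myc, Gm1966, Zfp704, Sox12, Socs2, Klrd1, Tob1, Gnl3, Gapdh, Pfkp, Cars, Iars, Slc43a3, Slc7a5, Cdc20, Zap70, Cd5, Mx1, Mx2, Oasl1, Rsad2, Gbp3, Osm, Rgcc, Naf1, Il12rb1, Il15ra, Rfc4, Fosl2, Klf3, Klf6, Txnip, Lat and Idi1 were no longer called in BBA, and Tubb3 and Il12rb2 did not pass the filter on low counts there.

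Bcl2, the founding inhibitor of mitochondrial cell death, was at 173 and 195 CPM in the BBA NC libraries and at 886, 758 and 912 CPM with IL-7. Every IL-7 library was above every NC library, and the change was 2.21 ± 0.16 (log2, adjusted p = 1.82e-06). WT cells held 193 to 261 CPM in NC and 1399 to 1553 CPM with IL-7, a change of 2.65 ± 0.14, and the difference of BBA from WT, -0.44 ± 0.19, did not pass the test (adjusted p = 0.44). Of the 12 tested members of the BCL-2 family, Bcl2 rose in BBA and Bak1, a pore-forming death effector, fell, from 47.7 and 44.5 to 23.4, 26.4 and 32.7 CPM (-0.75 ± 0.13, adjusted p = 0.000849). In WT 3 members rose and 2 fell, and in AAB 4 rose and 1 fell. The family's median change was 0.11 in BBA, beside a median of 0.00 over all genes tested.

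**Figure D1:**
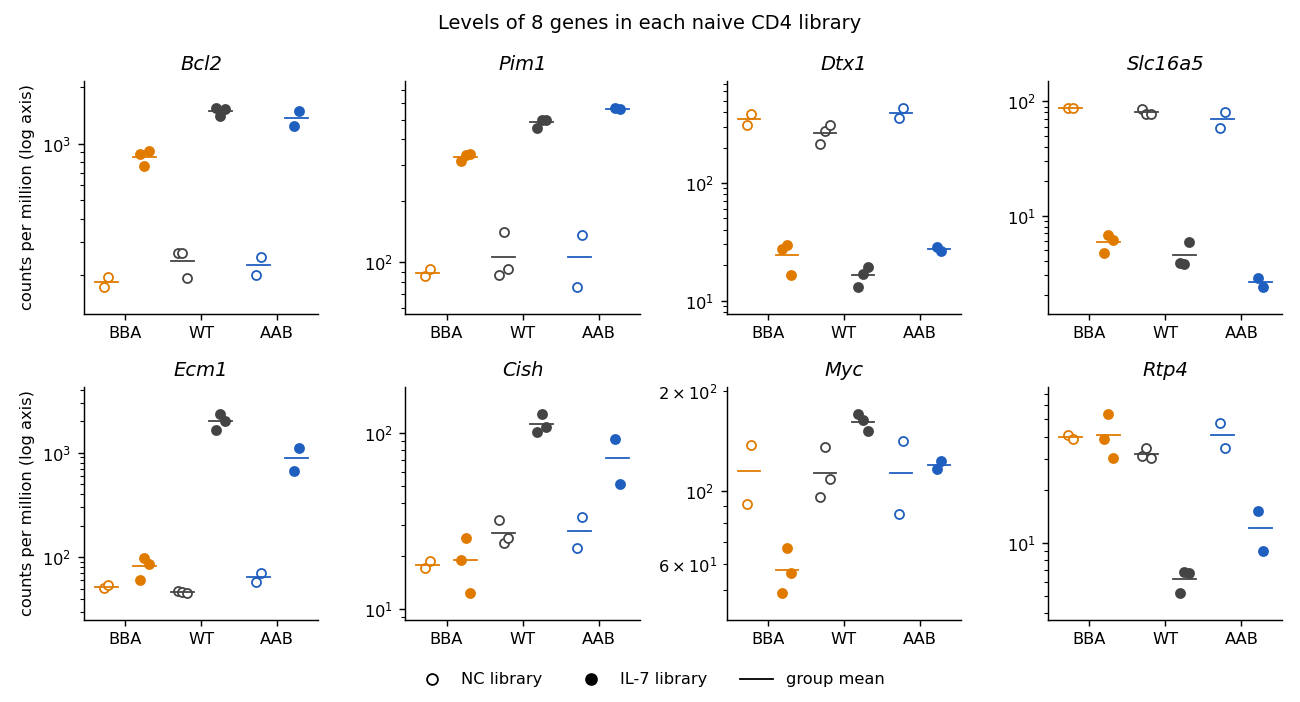
Levels of 8 genes in CPM on a log axis, each panel with its own range, with 1 point per library, open for NC and filled for IL-7, and a line at each group mean, for BBA (2 and 3 libraries), WT (3 and 3) and AAB (2 and 2). Bcl2 and Pim1 rose and Dtx1 and Slc16a5 fell in all 3 genotypes, Cish rose in WT and AAB and not in BBA, Ecm1 rose in all 3 with smaller values in BBA, Myc was called as a fall in BBA and not called in WT or AAB, and Rtp4 fell in WT and AAB while the BBA groups overlapped.

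Of the 3 PIM kinases, serine/threonine kinases that are induced by STATs and favour survival, Pim1 and Pim2 rose in every genotype. Pim1 went from 85.2 and 92.9 CPM to 312, 335 and 340.0 CPM in BBA (1.88 ± 0.23, adjusted p = 8.04e-05). Pim2 went from 74.7 and 93.8 to 202, 225 and 217 CPM (1.35 ± 0.12, adjusted p = 9.54e-06). The IL-7 libraries lay close together and clear of the NC libraries for both genes. The changes in WT were 2.18 and 1.56, and neither difference between BBA and WT passed (adjusted p = 0.802 and 0.71).

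Among genes of naive and quiescent T cells, 7 of 23 rose in BBA and 3 fell, with a median of 0.34, and without NC replicate 2 only 1 fall was called. The rises included those of Klf2, Klf3, S1pr1, Bach2, Tob1 and Cdkn1b, and the falls those of Foxo1, Id3 and Txnip. Id3 was not called without NC replicate 1, NC replicate 2 or IL-7 replicate 2 (adjusted p = 0.0914 to 0.154). Tob1 was not called without NC replicate 1, NC replicate 2 or IL-7 replicate 3 (adjusted p up to 0.121). Klf2, a transcription factor that keeps T cells resting and sustains S1pr1, rose from 370.5 and 372 to 691, 845 and 926 CPM (1.14 ± 0.14, adjusted p = 8.12e-05). S1pr1, the receptor by which lymphocytes leave lymph nodes, rose from 576 and 466 to 1086, 1039 and 1116 CPM (1.05 ± 0.17, adjusted p = 0.000515). Cdkn1b, the cell cycle inhibitor p27, rose by 0.88 ± 0.11, and no IL-7 library of these genes reached down to an NC library. In the list of homing and chemokine receptors, which shares members such as S1pr1 with the one above, 5 of 19 members rose and 2 fell in BBA. This stood beside 7.71% and 5.88% of all genes tested in BBA, and beside 5 and 5 members in WT and 3 and 4 in AAB. Without IL-7 replicate 3 the count in BBA was 3 and 1. S1pr4 rose from 211 and 164 to 324, 373 and 401 CPM, and Itgal, the alpha chain of the integrin LFA-1, fell from 715 and 788 to 373, 376 and 413 CPM (-0.96 ± 0.08, adjusted p = 4.83e-06). Cd44, the antigen against which the cells were sorted, also fell, but the NC libraries differed from each other at 48.5 and 19.0 CPM, and the call was lost without NC replicate 1 (-0.82, adjusted p = 0.283), IL-7 replicate 2 (adjusted p = 0.0535) or IL-7 replicate 3 (0.0601).

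The genes with the largest rises in BBA, chosen by fold among those passing the test with no overlap between IL-7 and NC libraries (as in 55.2% of all genes tested), were of mixed function. Acvr1c, an activin receptor of the TGF-beta family, had 4 and 2 counts in NC and 302, 85 and 214 with IL-7 and rose by 5.82 ± 0.66 (log2, adjusted p = 5.13e-05). Myo6, an unconventional myosin, rose from 7.90 and 6.58 to 45.1, 55.4 and 52.0 CPM (2.83 ± 0.36, adjusted p = 0.000108). Pgpep1l, Phldb1, Patl2, Clstn3, Gprc5b, Zfp704 and Sox12 rose by 2.70 to 3.46. Their changes in WT, at 1.01 to 3.23, passed in all 7, and the difference between BBA and WT passed in none of them. Trim12a, Gm1966 and Tubb3 also met the rule, but their IL-7 libraries lay far apart. Trim12a was 1.87 and 1.07 CPM in NC and 145, 3.73 and 125 CPM with IL-7, with replicates 1 and 3 high and replicate 2 near NC. Gm1966 showed the same order, at 39.2 and 51.7 CPM in NC and 948, 59.4 and 870.3 CPM with IL-7. So did Tubb3, a tubulin, at 0.987 and 0.696 CPM in NC and 11.1, 1.65 and 8.08 CPM with IL-7. Trim12a was 59.1 to 66.9 CPM in WT NC and 66.2 to 69.3 CPM in AAB NC. With IL-7 it was 92.1 to 189 CPM in WT and 104 to 108 CPM in AAB. Trim12a was thus nearly absent only from BBA NC replicates 1 and 2 and IL-7 replicate 2, and the cause was not tested. Gm1966 was 154, 113 and 466 CPM in WT NC replicates 1, 2 and 3 and 753, 142 and 647 CPM with IL-7. These WT and AAB levels were scaled with the libraries of conflicting labels included. BBA IL-7 replicates 1 and 3 are high in Prnp, and among the low libraries Gm1966 changed by 0.39 in BBA. Single libraries also decided these calls, as Trim12a without NC replicate 2 had an adjusted p of 0.0502 and Tubb3 of 0.0772. Gm1966 reached 0.13, 0.124, 0.0559 and 0.0537 without NC replicate 1, NC replicate 2, IL-7 replicate 1 and IL-7 replicate 3.

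Among the largest falls were genes of signalling and transport. Dtx1, which encodes the ubiquitin ligase Deltex 1 of the Notch pathway, went from 312 and 387 to 27.6, 29.5 and 16.4 CPM (-3.83 ± 0.22, adjusted p = 3.88e-07). Slc16a5, a monocarboxylate transporter gene, went from 87.5 and 86.8 to 4.69, 6.81 and 6.08 CPM (-3.90 ± 0.18, adjusted p = 1.25e-07). Every IL-7 library was far below every NC library for both genes. WT changed by -4.00 and -4.18, with differences from BBA of 0.17 ± 0.30 and 0.28 ± 0.25 that did not pass. Ddit4, which encodes the mTORC1 inhibitor REDD1, fell from 295 and 276 to 34.1, 23.8 and 30.2 CPM, and its WT NC libraries spread over 102 to 354 CPM. Its change of -3.28 ± 0.55 was not called among the 9 libraries low in Prnp (-3.58, adjusted p = 0.0944). Car12, a carbonic anhydrase gene, and Map2, a microtubule-associated protein gene, changed by -3.22 and -3.17.

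Immediate early genes, which are transcribed within minutes of a stimulus, fell in most members in all 3 genotypes. In BBA 13 of 21 fell and 2 rose, with a median of -1.75, against 17 and 1 in WT and 14 and 1 in AAB. Fos was 97.3 and 307 CPM in NC and 7.15, 5.81 and 2.78 CPM with IL-7 (-5.23 ± 0.69, adjusted p = 0.000136). Jun was 147 and 329.8 CPM in NC and 16.0, 13.3 and 13.5 CPM with IL-7 (-4.07 ± 0.57, adjusted p = 0.000215). NC replicate 2 was well above NC replicate 1 in both genes, and both were far above the IL-7 libraries. Egr2 fell (25.7 to 27.4 CPM in NC and 1.83 to 3.73 CPM with IL-7), as did Egr3 (39.1 to 49.3 CPM in NC and 0.869 to 6.09 CPM with IL-7). The members that rose were Fosl2 and Klf6, and without NC replicate 2 only 1 rise was called. In the 9 libraries low in Prnp 7 of the list fell, and the changes of Fos (-5.12, adjusted p = 0.0616) and Jun (-4.16, adjusted p = 0.0536) had like sizes and were not called.

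Among heat shock genes, which encode chaperones, 4 of 11 fell in BBA, with a median of -0.73, whereas all 11 fell in WT and 4 in AAB, and the difference between BBA and WT passed in none. Hspa1b, an inducible chaperone gene, was 68.3 and 10.8 CPM in the NC libraries and 1.56, 0.215 and 0.869 CPM with IL-7 (-5.38 ± 0.95, adjusted p = 0.00107). Its sister gene Hspa1a was 16.6 and 1.96 CPM in NC and 0.721, 0.0717 and 0.435 CPM with IL-7. NC replicate 1 was several-fold above NC replicate 2, and the near-identical sequences of both genes make the split of reads between them uncertain. Without NC replicate 1 only 1 member was called and Hspa1a was no longer called (-2.18, adjusted p = 0.28), and without NC replicate 2, IL-7 replicate 1 or IL-7 replicate 3, 2 were. Hspa8 and Hspe1 changed by -0.80 and -0.88. The call of Hspa8 was lost without any 1 of the 5 BBA libraries (adjusted p = 0.064 to 0.145), and that of Hspe1 without any but IL-7 replicate 2 (adjusted p = 0.0649 to 0.143).

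Of the 20 genes of the IL-7 receptor and JAK-STAT pathway, none rose in BBA and 2 fell, with a median of -0.17. Over all genes tested 7.71% rose and 5.88% fell in BBA. In this list Jak3, the kinase on the common gamma chain, fell from 305 and 428 to 173, 209 and 187 CPM (-0.95 ± 0.17, adjusted p = 0.00111). Ptpn6, the phosphatase SHP-1 that opposes JAK signalling, fell from 286 and 393 to 139, 122 and 133 CPM (-1.37 ± 0.16, adjusted p = 6.78e-05). Both also fell in WT and AAB. Il7r, the receptor gene itself and named after its values were seen, was 957 and 861 CPM in NC and 1493, 1172 and 1288 CPM with IL-7. All IL-7 libraries were above the NC libraries, but the difference of 0.54 ± 0.22 did not pass (adjusted p = 0.0855).

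Of the 8 SOCS and CIS genes 1 rose in BBA, while 4 rose in WT and 4 in AAB, with medians of 0.07, 0.67 and 0.50. Cish, which encodes the STAT5-induced inhibitor CIS, was 17 and 18.7 CPM in BBA NC and 19.0, 25.2 and 12.3 CPM with IL-7, so that the groups overlapped. In WT it went from 31.8, 23.8 and 25.1 to 100.4, 127 and 108 CPM (2.06 ± 0.25, adjusted p = 4.43e-05) and in AAB from 22.1 and 33.2 to 91.6 and 51.0 CPM. The response of BBA minus that of WT was -1.98 ± 0.38 (adjusted p = 0.0197). This difference stayed near that size but lost its call without BBA NC replicate 1 (adjusted p = 0.067), BBA NC replicate 2 (0.105), WT NC replicate 2 (0.0648), WT NC replicate 3 (0.0542) or WT IL-7 replicate 2 (0.0576).

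Socs1, another inhibitor of JAKs, was 35.9 and 42.1 CPM in BBA NC and 41.2, 43.2 and 37.4 CPM with IL-7, again with overlap, against 29.0, 33.0 and 32.3 CPM in NC and 82.1, 79.2 and 84.2 CPM with IL-7 in WT. The difference of the responses was -1.32 ± 0.18 (adjusted p = 0.00137). For Socs3 the same difference was -0.95 ± 0.21 (adjusted p = 0.0462). It did not pass without any 1 of 9 of the 11 BBA and WT libraries (adjusted p up to 0.15, without BBA NC replicate 2). Socs2 was the member that rose in BBA, from 1 and 6 counts to 19, 18 and 8 counts (1.91 ± 0.51, adjusted p = 0.0137), but not without NC replicate 1 (1.46, adjusted p = 0.0879). The rise of Socs2 in WT was 4.21 ± 0.39 (0.293 to 0.487 CPM in NC and 6.25 to 9.15 CPM with IL-7), and the difference of -2.30 ± 0.73 did not pass (adjusted p = 0.202).

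The receptors of other cytokines followed no single direction. In BBA 4 of 20 rose and 3 fell, against 7 and 3 in WT and beside 7.71% and 5.88% of all genes tested in BBA. The rises in BBA were those of Il10ra, Ifngr1, Il17ra and Il12rb2, and the falls those of Il12rb1, Il15ra and Il21r. Without NC replicate 2 only 1 fall was called, and Il12rb1 and Il12rb2 were not called without either NC library (adjusted p = 0.0559 and 0.0689 without NC replicate 1, 0.0519 and 0.053 without NC replicate 2). Il10ra rose from 22.1 and 32.3 to 99.7, 98.3 and 86.4 CPM (1.79 ± 0.19, adjusted p = 3.58e-05). Ifngr1, the ligand-binding chain of the interferon-gamma receptor, rose from 122 and 101 to 279, 402 and 230.0 CPM (1.45 ± 0.27, adjusted p = 0.00152). The IL-7 libraries were clear of the NC libraries in both. Il4ra, the IL-4 receptor alpha chain, was lower with IL-7 in BBA, at 582 and 621 CPM in NC and 374, 487 and 445 CPM, a change of -0.47 ± 0.10 that was under 1.5-fold. In WT it held 463 to 498 CPM in NC and 835 to 964 CPM with IL-7 and rose by 0.88 ± 0.09. The difference was -1.35 ± 0.14 (adjusted p = 0.000193). Il2ra, the IL-2 receptor alpha chain and a known STAT5 target, was named after its values were seen. It was 3.95 and 4.30 CPM in NC and 6.13, 9.10 and 2.78 CPM with IL-7 in BBA, with overlap, and 7.79, 5.72 and 3.96 CPM in NC and 23.4, 59.2 and 38.1 CPM with IL-7 in WT, where it rose by 2.84 ± 0.42. The difference of -2.29 ± 0.65 did not pass (adjusted p = 0.141). Among the 9 libraries low in Prnp Il2ra was called as a rise in BBA (1.14, adjusted p = 0.0221).

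Of 22 members of the TNF superfamily 4 rose and 4 fell in BBA, 6 and 3 in WT, and 5 and 6 in AAB. Over all genes tested 7.71% rose and 5.88% fell in BBA. Tnf, the inflammatory cytokine, was 29.2 and 37.2 CPM in BBA NC and 2.46, 3.66 and 2.87 CPM with IL-7 (-3.48 ± 0.33, adjusted p = 1.33e-05). In WT the groups overlapped at 24.7, 44.9 and 36.2 CPM in NC and 25.0, 34.5 and 23.9 CPM with IL-7 (-0.33 ± 0.26), and in AAB it changed by -1.90 ± 0.33, a fall that passed. The difference from WT was -3.15 ± 0.42 (adjusted p = 0.0014), and in the 9 libraries low in Prnp it was -3.17, adjusted p = 0.227. The receptor gene Tnfrsf4 (OX40) rose in BBA, from 11.8 and 15.6 to 31.3, 31.2 and 27.1 CPM, with a difference from WT of -1.98 ± 0.23 (adjusted p = 0.000343). Tnfrsf18 (GITR) rose from 33.7 and 34.4 to 65.0, 72.1 and 49.8 CPM, with a difference of -1.42 ± 0.22 (adjusted p = 0.00402), so the rise of both was smaller in BBA than in WT. Both are among 8 regulatory T cell markers, whose summed level was 135 and 158 CPM in NC and 135 to 205 CPM with IL-7 in BBA and 101 to 137 CPM in NC and 360 to 474 CPM with IL-7 in WT. Of these markers 4 rose and none fell in WT, and 3 rose and 2 fell in BBA. The defining marker Foxp3 changed by 0.04 in WT and -0.75 in BBA. The part of these cells in the differences was not tested. Tnfrsf26 rose by 1.82 in BBA and 2.1 in WT, with no difference that passed. Lta, lymphotoxin alpha, rose in WT (16.3 to 28.6 CPM in NC and 84.5 to 112 CPM with IL-7) and not in BBA, at 18.0 and 27.3 CPM in NC and 16.8, 11.9 and 14.8 CPM with IL-7. BBA minus WT was -2.68 ± 0.43 (adjusted p = 0.00547, or 0.0548 without BBA NC replicate 2). Tnfsf8, the CD30 ligand, rose in BBA by 0.75 ± 0.18 and in WT by 2.09 ± 0.17. Its rise in BBA was lost without NC replicate 1 (0.60, adjusted p = 0.0855) and fell under 1.5-fold without IL-7 replicate 2. The difference of -1.34 ± 0.24 (adjusted p = 0.012) was lost without BBA NC replicate 2 (adjusted p = 0.086). Tnfrsf9, the costimulatory receptor 4-1BB, fell in BBA (-1.88) and WT (-1.72).

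Myc, the transcription factor that drives ribosome production and metabolism, was 90.8 and 138 CPM in BBA NC and 49.0, 67.0 and 56.4 CPM with IL-7. Every IL-7 library was below both NC libraries. The fall was -1.0 ± 0.21 (adjusted p = 0.00384), but without NC replicate 2, the higher of the NC libraries, it was -0.66, adjusted p = 0.09. In WT Myc was 95.5, 135 and 108 CPM in NC and 171, 163 and 151 CPM with IL-7, higher in every IL-7 library, with a change of 0.51 ± 0.19 that did not pass (adjusted p = 0.0509), and in AAB the groups overlapped. The difference between BBA and WT was -1.51 ± 0.29 (adjusted p = 0.0179). It was lost without BBA NC replicate 2 (adjusted p = 0.121), WT NC replicate 1 (0.0531) or WT IL-7 replicate 1 (0.0508). Mxi1, which encodes a MYC antagonist, rose in BBA from 20.3 and 23.7 to 56.0, 40.9 and 46.8 CPM (1.12 ± 0.15) and by 0.78 in WT.

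Ribosome biogenesis genes, which build ribosomes in the nucleolus, fell in part. Of 33 members 15 fell and none rose in BBA, with a median of -0.50, beside 3 in WT (median -0.20) and 2 in AAB (median -0.22). Leaving out single BBA libraries gave 14 to 17 falls, and the 9 libraries low in Prnp gave 10. Rrp12, a processing factor of the small ribosomal subunit, fell from 50.9 and 48.0 to 14.7, 17.3 and 16.9 CPM (-1.60 ± 0.11, adjusted p = 1.82e-06), against -1.02 in WT. Tsr1 fell from 106 and 118 to 58.7, 62.4 and 55.0 CPM (-0.93 ± 0.09, adjusted p = 2.26e-05), and Utp20 and Gnl3 changed by -1.03 and -0.89. No IL-7 library overlapped an NC library in these genes. Of the 33, Dkc1, the pseudouridine synthase dyskerin, which was not called in BBA itself, alone differed from WT by the test, at -0.59 ± 0.12 (adjusted p = 0.0207), and this call was lost without any 1 of 7 libraries (adjusted p up to 0.125, without BBA NC replicate 2). The 15 that fell in BBA did not differ from WT by the test, which does not show that they responded alike.

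**Figure D2:**
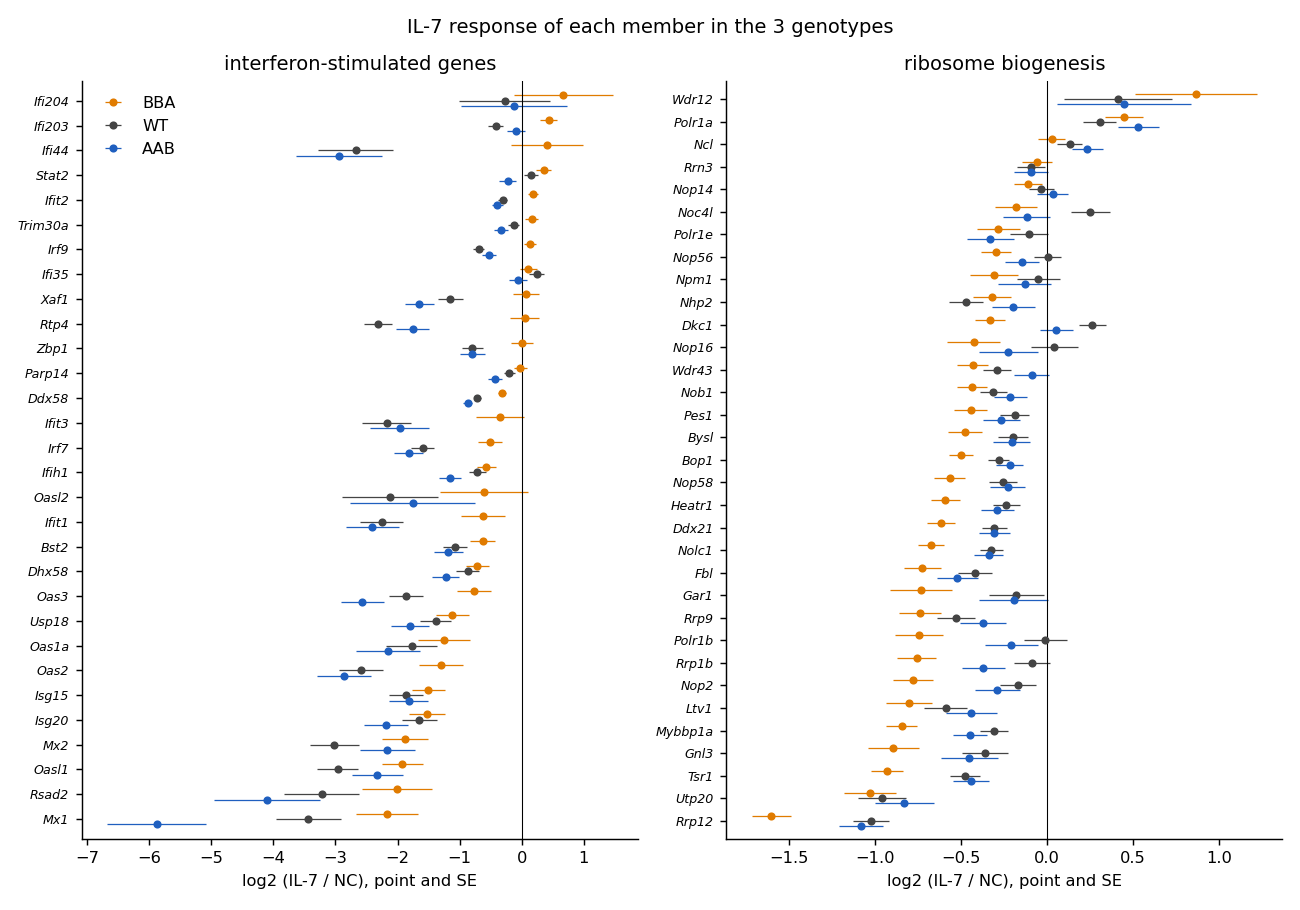
Log2 change with IL-7 over NC of 30 of the 31 tested interferon-stimulated genes (left) and each tested ribosome biogenesis gene (right), with the estimate as a point and its standard error as a bar, for BBA (orange), WT (dark grey) and AAB (blue). The 31 interferon-stimulated genes have a median of -0.51 in BBA and -1.46 in WT, and the ribosome biogenesis genes have a median of -0.50 in BBA and -0.20 in WT.

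Other genes of biosynthesis gave smaller counts. Among aminoacyl-tRNA synthetases 4 of 20 fell in BBA and 1 rose. Wars, which interferons are known to induce, rose from 68.8 and 62.8 to 126, 181 and 147 CPM (1.20 ± 0.14, adjusted p = 7.29e-05), and Vars fell from 181 and 187 to 98.9, 114 and 82.7 CPM. The falls of Cars and Iars were lost without NC replicate 1 (-0.42 and -0.34, adjusted p = 0.119 and 0.0945), which left 1 fall in the list, and 7 were called without NC replicate 2. Of 14 glycolysis genes 3 fell, beside 5.88% of all genes tested, namely Gapdh, Pfkp and Pfkfb3. Pfkfb3, which encodes a regulator of glycolytic flux, went from 78.1 and 86.4 to 46.3, 43.4 and 45.0 CPM (-0.87 ± 0.07). Gapdh was not called without NC replicate 2 (-0.45, adjusted p = 0.0704) or IL-7 replicate 3 (under 1.5-fold), nor was Pfkp without NC replicate 2 (under 1.5-fold). Leaving out NC replicate 2 gave 1 fall, and leaving out NC replicate 1 or IL-7 replicate 2 gave 5. Of 11 amino acid and glucose transporter genes Slc43a3 rose by 0.92 and Slc7a5, a subunit of the large neutral amino acid transporter, changed by -0.82, a fall that passed. Slc43a3 was not called without any BBA library but IL-7 replicate 3 (adjusted p up to 0.203). Slc7a5 was not called without NC replicate 1 (-0.47, adjusted p = 0.0863). Ipo4 alone of 22 importin and exportin genes fell, from 66.8 and 70.4 to 32.0, 35.7 and 31.8 CPM (-1.05 ± 0.10, adjusted p = 1.23e-05).

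Cholesterol synthesis genes rose in part. In BBA 7 of 22 rose and none fell, with a median of 0.32, against 12 in WT (median 0.82) and 12 in AAB (median 0.90). Fdft1, the squalene synthase gene, went from 27.2 and 20.9 to 31.3, 43.9 and 42.5 CPM (0.71 ± 0.15, adjusted p = 0.00358), and its change in WT was 0.93. Idi1, Insig1, Stard4, Msmo1 and Sc5d were among the other members that rose, with Msmo1 and Sc5d at 0.77 and 0.72. Fdft1 was not called without NC replicate 2 (0.53, adjusted p = 0.072), Msmo1 without NC replicate 2 (0.58, adjusted p = 0.128) or IL-7 replicate 2 (under 1.5-fold), and Sc5d without NC replicate 1 (under 1.5-fold). Without NC replicate 2 the count was 3 and without IL-7 replicate 2 it was 4, and no member differed between BBA and WT by the test.

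Regulators of mTORC1, the kinase complex that couples nutrients to growth, gave like counts in the 3 genotypes. In each genotype 4 of 20 rose and 2 fell, beside 7.71% and 5.88% of all genes tested in BBA. Sesn1, a sestrin that restrains mTORC1, rose from 139 and 129 to 261, 292 and 362 CPM in BBA, and Gatsl2 from 15.2 and 17.9 to 32.2, 28.2 and 35.5 CPM. Rragd, which encodes a Rag GTPase, rose from 9.22 and 8.41 to 24.3, 20.4 and 24.1 CPM in BBA (1.38 ± 0.18) and from 3.41, 2.69 and 2.13 to 34.1, 32.3 and 36.4 CPM in WT (3.67 ± 0.18). The responses differed by -2.29 ± 0.25 (adjusted p = 0.00026). Fnip1, a partner of folliculin, was 59.2 and 56.1 CPM in NC and 75.7, 79.9 and 80.6 CPM with IL-7 in BBA, clear of each other but under 1.5-fold apart, and 56.6 to 63.4 CPM in NC and 189.7 to 209.5 CPM with IL-7 in WT. This was a difference from WT of -1.30 ± 0.12 (adjusted p = 6.97e-05).

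Some cell cycle genes changed. Of 14 D cyclin, G1 kinase and inhibitor genes 4 rose in BBA, beside 7.71% of all genes tested, Cdkn1a, Cdkn1b, Rb1 and Ccne1, of which all but Ccne1 restrain the cycle. Rb1 went from 92.2 and 89.0 to 185, 153 and 181 CPM (0.94 ± 0.14, adjusted p = 0.000358). The calls of Cdkn1a and Ccne1 were lost without either NC library (adjusted p of 0.0575 and 0.19 without NC replicate 1, and 0.12 and 0.0745 without NC replicate 2). That of Ccne1 was lost also without IL-7 replicate 2 or 3. Cdk6, a G1 kinase gene, stayed at 4.50 and 3.67 CPM in NC and 5.89, 5.52 and 4.78 CPM with IL-7 in BBA and rose (5.36 to 6.60 CPM in NC and 41.7 to 62.4 CPM with IL-7) in WT. The difference from WT came to -2.66 ± 0.29 (adjusted p = 0.000278). Of 25 DNA replication genes Lig1 rose and Rfc4 fell, the first not without NC replicate 1 (adjusted p = 0.0638) and the second not without NC replicate 2, IL-7 replicate 1 or IL-7 replicate 3 (adjusted p up to 0.2), and of 11 mitosis genes Cenpa and Cdc20 rose by 0.99 and 0.79, Cdc20 not without NC replicate 2 (0.57, adjusted p = 0.15). Tob1, an antiproliferative gene of resting T cells, rose by 0.69 ± 0.20 in BBA, and its difference from WT, 1.20 ± 0.27 (adjusted p = 0.0478), was lost without any 1 of 9 libraries (adjusted p up to 0.212, without BBA NC replicate 1).

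Some genes of T cell identity fell. Of 21 genes of the T cell receptor complex and its proximal kinases 5 fell in BBA, Zap70, Lat, Csk, Ptprc and Cd5, beside 5.88% of all genes tested, against 8 in WT and 11 in AAB. Zap70 went from 268 and 273 to 162, 181 and 186 CPM (-0.62 ± 0.09, adjusted p = 0.000206), close to the 1.5-fold limit, and without IL-7 replicate 1 it was under that limit. Leaving out NC replicate 2 or IL-7 replicate 2 gave 1 call in the list, and Csk, Ptprc and Cd5 lost theirs without either of these libraries, Cd5 also without NC replicate 1 (adjusted p = 0.0778). Of 12 T helper lineage genes Rora, Prdm1 and Bhlhe40 rose and 5 fell, Bcl6, Gata3, Foxp3, Ikzf2 and Zbtb7b, or 3 fell without NC replicate 2 or IL-7 replicate 2. Ikzf2 was not called without any BBA library but IL-7 replicate 1 (adjusted p up to 0.186). Rora rose from 9.76 and 10.1 to 35.1, 26.1 and 24.4 CPM (1.53 ± 0.26, adjusted p = 0.000844). Bhlhe40 rose from 3.51 and 3.73 to 36.7, 22.7 and 9.04 CPM, its IL-7 libraries several-fold apart but all above NC. Bcl6, the follicular helper factor that STAT5 represses, fell from 34.1 and 35.2 to 20.5, 8.17 and 11.6 CPM (-1.36 ± 0.27, adjusted p = 0.00255) and changed by -1.94 in WT.

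Of 31 interferon-stimulated genes 11 fell and none rose in BBA, with a median of -0.51, whereas 24 fell in WT (median -1.46) and 22 in AAB (median -1.76). The count in BBA was 5 without NC replicate 1, 7 without NC replicate 2, 7 without IL-7 replicate 1, 14 without IL-7 replicate 2 and 8 without IL-7 replicate 3. There were 2 falls among the 9 libraries low in Prnp.

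Rtp4, an interferon-induced gene, was 40.7 and 38.6 CPM in NC and 38.6, 53.6 and 30.2 CPM with IL-7 in BBA and fell from 31.2, 34.3 and 30.4 to 5.21, 6.86 and 6.72 CPM in WT. BBA minus WT was 2.36 ± 0.33 (adjusted p = 0.00191). Irf9, the DNA-binding part of an interferon-activated complex, and Ifi203 differed by 0.83 ± 0.13 and 0.85 ± 0.18 (adjusted p = 0.00539 and 0.0357), the latter lost without any 1 of 8 libraries (adjusted p up to 0.205, without BBA NC replicate 1). Mx2 and Oasl1, both antiviral effectors, did fall in BBA, from 7.13 and 5.31 to 1.20, 2.37 and 1.48 CPM (-1.88 ± 0.37) and from 15.4 and 7.52 to 2.46, 4.01 and 2.43 CPM (-1.92 ± 0.33), as did Mx1 and Rsad2. Mx1 was not called without NC replicate 2 (-1.69, adjusted p = 0.0959), and Rsad2 was not called without NC replicate 1 (-1.40, adjusted p = 0.168) or IL-7 replicate 1 (-1.62, adjusted p = 0.0602). Of 14 GTPases induced by interferon-gamma 1 rose and none fell in BBA, against 7 falls each in WT and AAB. Gbp3 was the member that rose, from 38.5 and 28.5 to 80.0, 53.7 and 55.8 CPM (0.93 ± 0.18, adjusted p = 0.00246), and 6 rose among the libraries low in Prnp, while Gbp3 there was 0.70, adjusted p = 0.0665. Without IL-7 replicate 2 there were 2 falls in this list. Gbp10 was 37.7 and 48.0 CPM in NC and 20.5, 47.3 and 20.2 CPM with IL-7 in BBA and 7.42, 7.96 and 6.16 CPM in NC and 0.595, 0.265 and 0.0921 CPM with IL-7 in WT. The responses differed by 4.11 ± 0.70 (adjusted p = 0.00855, or 0.0888 without WT IL-7 replicate 2). Irgm1, a GTPase of autophagy and defence, differed by 1.95 ± 0.30 (adjusted p = 0.0042).

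**Figure D3:**
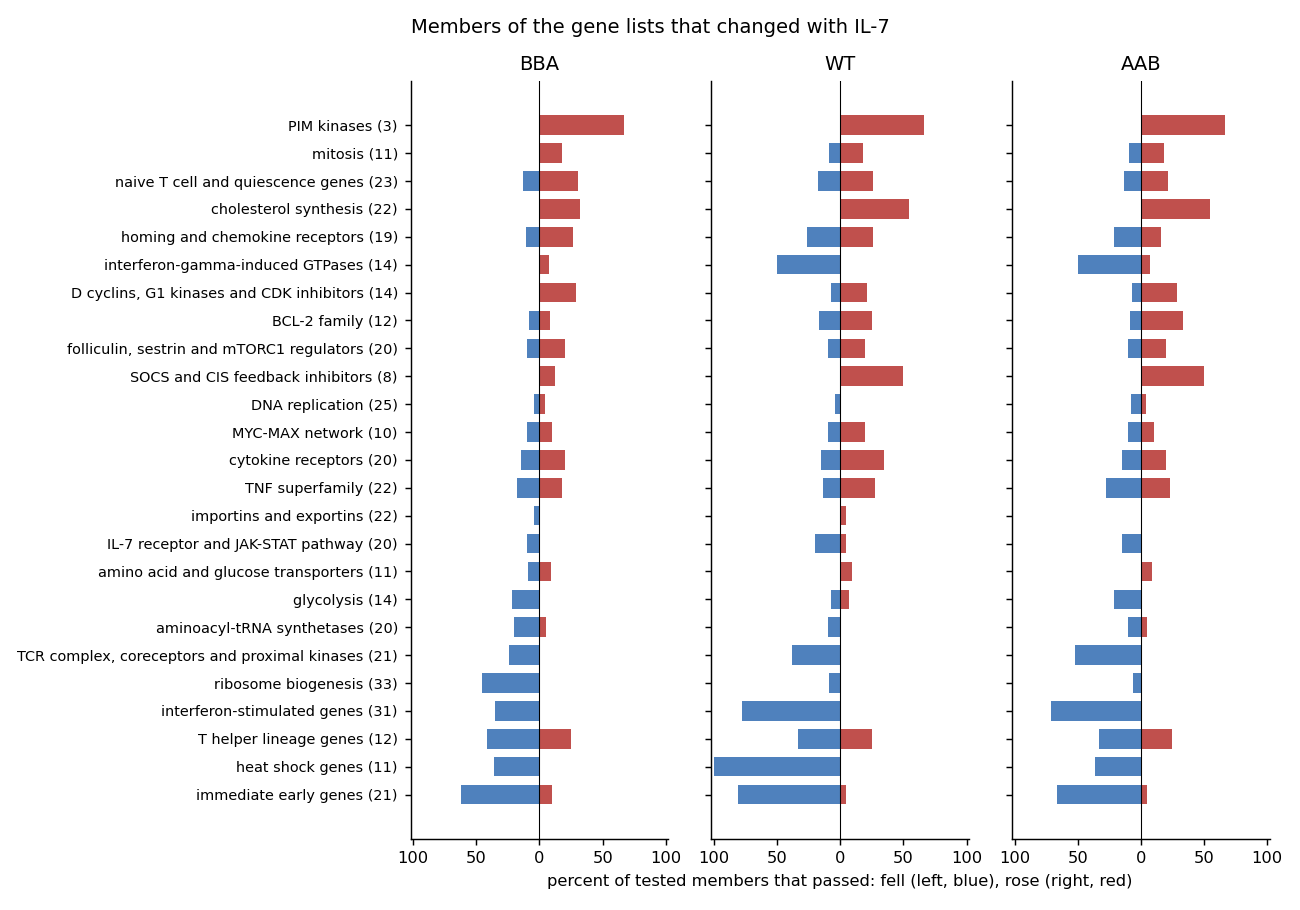
Share of the tested members of each of 25 gene lists that rose (red, to the right) or fell (blue, to the left) by more than 1.5-fold with an adjusted p under 0.05 in BBA, WT and AAB, in percent, with the number of tested members in parentheses after each list. PIM kinases rose by the same count in each genotype, SOCS and CIS genes rose in WT and AAB with 1 of 8 in BBA, ribosome biogenesis genes fell in 15 of 33 in BBA, and interferon-stimulated genes fell in 11 of 31 in BBA and 24 of 31 in WT.

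The WT response was then followed into BBA. Of the 915 genes that rose in WT (8.8% of those tested), 522 (57%) also rose in BBA, beside 7.71% of all genes tested. Another 390 were not called and 3 fell, and the change had the same sign in 96.1%. Of the 769 that fell in WT (7.39%), 387 (50.3%) also fell in BBA, beside 5.88% of all genes tested. Another 381 were not called and 1 rose, and 95.4% had the same sign. The share of all genes tested with the same sign in both genotypes was not computed, so the shares by sign have no base rate. The median change of the genes that rose in WT was 0.91 in WT and 0.73 in BBA, and that of the genes that fell was -0.96 and -0.70. Genes called in WT were chosen partly for a large value there, which raises the WT medians, so these medians are descriptions only. Read from BBA, 65.1% of the 802 rises and 63.2% of the 612 falls were called in WT with the same sign. Among the 9 libraries low in Prnp, 302 of 594 rises in WT (50.8%) and 237 of 477 falls (49.7%) were called in BBA.

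The difference of the responses was tested directly for each gene. It passed for 115 genes (1.11% of those tested), with BBA below WT in 93 (0.894%) and above in 22 (0.211%), and at an unadjusted p under 0.05 there were 1110. In 57 of the 93 the gene rose in WT and was not called in BBA, in 16 it rose in both, in 3 it rose in WT and fell in BBA, in 9 it fell in BBA alone, and in 8 it was called in neither. Of the 22, 12 fell in WT and were not called in BBA, 3 fell in both, 3 rose in BBA alone, 3 were called in neither, and Klrd1 fell in WT and rose in BBA. Without single libraries 81 to 152 differences passed. Without replicate 3 of WT NC or of WT IL-7, whose Stat5a was low, 112 and 103 did. Among the 9 libraries low in Prnp 31 passed, 22 of them among the 115. Of the genes described here Il4ra, Tnfrsf4, Rragd, Cdk6, Rtp4, Gbp10, Irgm1, Ecm1, Gpr146, Slc30a4, Atp10a, Phc3 and Pkp4 passed there and the other named differences did not. Of the 33 that lost their call, 29 kept at least 80% of their log2 size (65.9% to 130% over all 33).

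**Figure D4:**
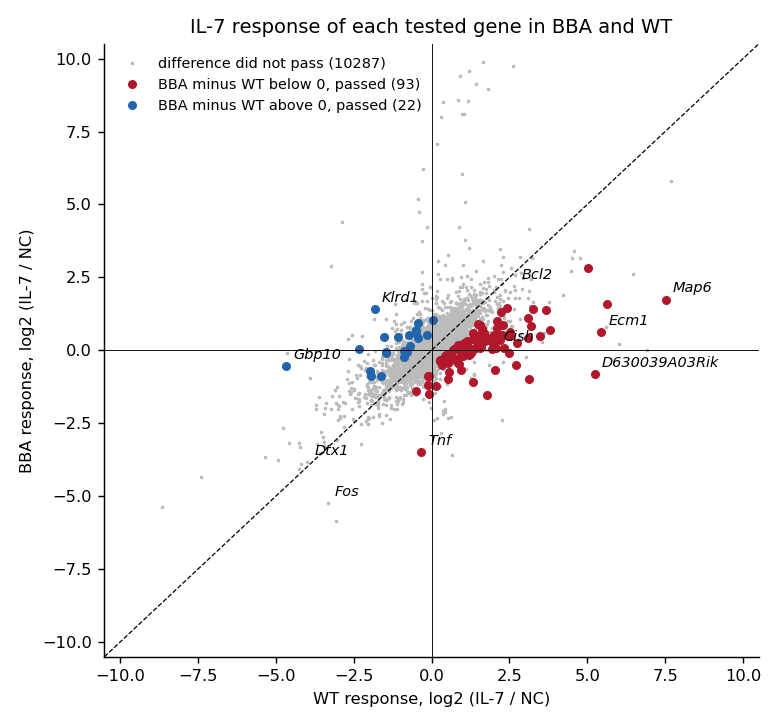
Log2 change with IL-7 over NC of each of 10402 tested genes in WT (horizontal axis) and BBA (vertical axis), with a dashed line where both are equal, red points for the 93 genes whose response passed as lower in BBA, blue points for the 22 that passed as higher, and grey points for the rest. Of the red points 76 are genes that rose in WT, and they lie below the dashed line on its right side. Grey points at the top include Prnp, for which the BBA IL-7 libraries lay far apart.

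Of the 6 genes with the largest differences below WT, Ecm1, D630039A03Rik, Map6, Rgs1 and 3110082I17Rik are given here and Tnf, which fell in BBA and overlapped in WT, is above. Ecm1, extracellular matrix protein 1, was 51.1 and 53.7 CPM in BBA NC and 60.9, 99.1 and 85.3 CPM with IL-7, against 47.2, 46.1 and 45.5 CPM in NC and 1647, 2342 and 2027 CPM with IL-7 in WT. The IL-7 libraries of BBA were all above its NC libraries, by 0.64 ± 0.23, but this call (adjusted p = 0.0488) was lost without NC replicate 1 (adjusted p = 0.175), NC replicate 2 (0.163), IL-7 replicate 2 (0.14) or IL-7 replicate 3 (0.104). The difference from WT was -4.80 ± 0.30 (adjusted p = 2.9e-06). D630039A03Rik was at most 1.33 CPM in BBA and rose (0.449 to 0.609 CPM in NC and 17.6 to 21.6 CPM with IL-7) in WT. This was a difference from WT of -6.05 ± 0.59 (adjusted p = 0.000106). Map6, a microtubule-binding protein gene, rose in WT (0.112 to 0.243 CPM in NC and 30.5 to 42.3 CPM with IL-7) and was 0.549 and 0.0632 CPM in NC and 0.601, 0.430 and 1.65 CPM with IL-7 in BBA. Its difference of -5.77 ± 1.24 (adjusted p = 0.0388) was lost without any 1 of 7 libraries (adjusted p up to 0.702, without BBA NC replicate 1, the NC library with the higher value). In BBA itself a rise of Map6 was called without NC replicate 1 (3.56, adjusted p = 0.0257) or IL-7 replicate 2 (2.07, adjusted p = 0.0383). Rgs1, a regulator of G protein signalling, and 3110082I17Rik differed by -4.10 ± 0.63 and -3.21 ± 0.52. Without BBA NC replicate 2 that of Rgs1 was -2.67, adjusted p = 0.0961 and without BBA NC replicate 1 that of 3110082I17Rik was -2.85, adjusted p = 0.0534.

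Myo6 passed in both genotypes with a smaller response in BBA. It rose by 2.83 in BBA and by 5.02 in WT, where it went from 15.2, 20.0 and 7.18 to 386, 563 and 383 CPM. The difference of -2.19 ± 0.45 (adjusted p = 0.0322) was lost without any 1 of 6 libraries, with an adjusted p up to 0.154 without BBA NC replicate 1. Stat4, which transmits IL-12 signals, was higher by 0.24 ± 0.09 in BBA and rose by 1.03 ± 0.08 in WT. The difference from WT came to -0.79 ± 0.12 (adjusted p = 0.00518).

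The genes that fell in BBA and were not called in WT were, other than Tnf and Myc, named after their values were seen, as were the 3 that moved in opposite directions. Vim, the intermediate filament protein vimentin, fell from 297 and 287 to 139, 122 and 123 CPM in BBA and was 399, 335 and 365 CPM in NC and 343, 331 and 334 CPM with IL-7 in WT. BBA minus WT was -1.06 ± 0.11 (adjusted p = 0.000234). It also fell in AAB, with a change of -1.20. Osm, the cytokine oncostatin M, fell from 31.6 and 35.5 to 21.3, 20.9 and 18.2 CPM in BBA. In WT the IL-7 libraries were higher, at 37.0 to 43.9 against 25.9 to 29.4 CPM, under 1.5-fold. The others were Tnf, Myc, Srm (spermidine synthase, -1.38 in BBA and -0.49 in WT), Ctps (CTP synthase, -0.87 and -0.07), Nars2 (a mitochondrial aminoacyl-tRNA synthetase, -1.24 and 0.14), Ifrd2 (-0.86 and -0.11) and D030028A08Rik (-1.51 and -0.08). The difference of Srm was lost without BBA NC replicate 2 (adjusted p = 0.0907), that of Ifrd2 without either BBA NC library (adjusted p = 0.0674 and 0.0548). That of D030028A08Rik was lost without any 1 of 8 libraries (adjusted p up to 0.109, without BBA NC replicate 1).

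Rgcc, a regulator of the cell cycle, Naf1, an assembly factor of H/ACA ribonucleoproteins, and the pseudogene Art2a-ps rose in WT and fell in BBA. Rgcc was 23.3 and 23.1 CPM in NC and 11.9, 10.3 and 10.5 CPM with IL-7 in BBA and 34.7, 32.3 and 33.2 CPM in NC and 89.7, 65.3 and 97.4 CPM with IL-7 in WT, with no overlap in either genotype. The difference was -2.41 ± 0.32 (adjusted p = 0.00131). For Naf1 it was -1.62 ± 0.29 (adjusted p = 0.0112). It was lost without BBA NC replicate 1 (adjusted p = 0.0728), and the fall of Naf1 in BBA, -0.67 ± 0.22, was lost without any BBA library but IL-7 replicate 2 (adjusted p up to 0.198). Art2a-ps changed by -1.54 in BBA and 1.79 in WT. Its fall was lost without any BBA library but IL-7 replicate 1 and its difference without any 1 of 9 libraries (adjusted p up to 0.185 and 0.163, both without BBA NC replicate 2).

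Among genes with a higher response in BBA than in WT, H2-T24, St3gal6 and Klrd1 were named by the rule along with the interferon-induced genes above. H2-T24, a nonclassical major histocompatibility gene of a family of close relatives, was 154 and 107 CPM in NC and 111, 150.1 and 116 CPM with IL-7 in BBA and fell in WT. The responses differed by 1.41 ± 0.27 (adjusted p = 0.0179), lost without WT NC replicate 1 (adjusted p = 0.0536), BBA NC replicate 2 (0.112) or WT IL-7 replicate 2 (0.0584). St3gal6, a sialyltransferase gene, differed by 1.56 ± 0.24 (adjusted p = 0.0047). Klrd1, which encodes the NK receptor chain CD94, was 2.41 and 2.21 CPM in NC and 7.57, 3.30 and 7.56 CPM with IL-7 in BBA and 6.21, 10.4 and 4.76 CPM in NC and 2.53, 1.91 and 1.66 CPM with IL-7 in WT. It is itself one of the NK cell markers, and the summed NK markers were high in IL-7 replicate 3 and in both BBA NC libraries. Its rise in BBA was lost without NC replicate 1, NC replicate 2, IL-7 replicate 1 or IL-7 replicate 3 (adjusted p = 0.0642 to 0.14). Its difference of 3.24 ± 0.56 was lost without either BBA NC library (adjusted p = 0.0525 and 0.0674).

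Promoters of the genes whose responses differed were searched for the GAS motif TTCNNNGAA, the sequence that STAT5 dimers are known to bind. The letters read the same on both strands. Windows of 250 bases before to 50 bases after each start site came from RefSeq on GRCm38.p6, and 101 of the 137 named genes had such a window. The motif stood in 9.84% of the 61 genes that rose in WT with a smaller response in BBA, in 8.91% of the 640 that rose in WT with no difference called, in 8.17% of the 600 that rose in BBA and in 8.55% of the 7996 tested genes with a window (8.3% of all 32851 windows). These shares lie close together. Among feedback inhibitors and TNF family genes whose responses differed between BBA and WT, Socs1, Tnf, Tnfrsf4 and Tnfsf8 had windows without the motif. Nars2 and D030028A08Rik, whose responses also differed, held matches that are not shown. The matches in the other feedback inhibitors and TNF family genes whose responses differed between BBA and WT, and in Gpr146, are shown as 30 bases on the strand of the gene, 5′ to 3′, with the motif in capitals.
Cish, chr9:107296649-107296678, plus strand: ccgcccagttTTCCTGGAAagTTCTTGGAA
Socs3, chr11:117969501-117969530, minus strand: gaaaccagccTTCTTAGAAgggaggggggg
Lta, chr17:35205484-35205513, minus strand: accatcactcTTCAGGGAAccaggcttcca
Lta, chr17:35205348-35205377, minus strand: ccgactccctTTCCCAGAAcgcagtagtct
Tnfrsf18, chr4:156026213-156026242, plus strand: tgctctacacTTCACAGAAggcctttacaa
Gpr146, chr5:139380510-139380539, plus strand: taagcaccggTTCCAAGAAaagggcggagc
Cish held 2 motifs, centred at 4 and 15 bases from the start site, Socs3 held 1 at -150, Lta 2 at -148 and -12, Tnfrsf18 1 at -95 and Gpr146 1 at -115. A match is a description of these letters and not a site of binding.

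AAB cells, which keep 1 allele of Stat5b instead of Stat5a, hold the same number of Stat5 alleles as BBA cells. Their IL-7 response held 743 rises and 620 falls (7.14% and 5.96%). In BBA 63.6% of the rises and 64.1% of the falls were called in AAB with the same sign and none with the opposite sign. The difference between the responses of BBA and AAB passed for 12 genes (0.115% of those tested), 10 lower in BBA and 2 higher (0.0961% and 0.0192%), with 478 at an unadjusted p under 0.05. This count was 7 without AAB NC replicate 1, 6 without BBA NC replicate 1, 20 without AAB IL-7 replicate 2 and 22 without BBA IL-7 replicate 2, and among the 9 libraries low in Prnp 1 passed, Ecm1, while 8 of the 9 other named differences kept at least 80% of their log2 size. With a term for the replicate number within each genotype in the fit, Slc30a4 was the only difference from AAB that was called. The comparisons with WT and with AAB share the BBA libraries, so their differences are not independent.

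The 10 genes with the lower response in BBA rose in AAB and also in WT. Gpr146, an orphan G protein-coupled receptor, was 128 and 133 CPM in BBA NC and 127, 135 and 140.1 CPM with IL-7, against 119 and 112 CPM in NC and 264 and 273 CPM with IL-7 in AAB. The BBA groups overlapped. The difference was -1.18 ± 0.13 from AAB (adjusted p = 0.00213) and -1.90 ± 0.12 from WT (adjusted p = 2.9e-06). Ecm1 rose in AAB from 57.7 and 71.0 to 672 and 1114 CPM, which was -3.15 ± 0.33 apart from BBA (adjusted p = 0.00213). Slc30a4, a zinc transporter gene, was 14.7 and 20.4 CPM in NC and 21.4, 32.7 and 21.2 CPM with IL-7 in BBA and 17.9 and 19.8 CPM in NC and 141 and 143 CPM with IL-7 in AAB. BBA minus AAB was -2.41 ± 0.28 (adjusted p = 0.00341). Atp10a, a phospholipid flippase gene, was 29.1 and 30.7 CPM in NC and 38.3, 38.4 and 49.4 CPM with IL-7 in BBA and 51.7 and 55.8 CPM in NC and 211 and 238 CPM with IL-7 in AAB (-1.57 ± 0.20, adjusted p = 0.00511). For Slc30a4 and Atp10a all BBA libraries with IL-7 were above those without, by 0.50 ± 0.20 and 0.49 ± 0.14, which did not pass or was under the 1.5-fold limit. The rise of Slc30a4 in BBA was called without IL-7 replicate 1 (0.61, adjusted p = 0.0474), and among the libraries low in Prnp it was 0.89.

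Phc3, a Polycomb group gene, was 216 and 208 CPM in NC and 316, 322 and 286 CPM with IL-7 in BBA and 239 and 212 CPM in NC and 659 and 759 CPM with IL-7 in AAB (-1.12 ± 0.14, adjusted p = 0.00498). Its change in BBA, 0.54 ± 0.10 and under 1.5-fold, was called as a rise without IL-7 replicate 3 (0.59, adjusted p = 0.00158). Among the libraries low in Prnp that change was 0.61. Fnip1 differed from AAB by -0.97 ± 0.13 (adjusted p = 0.0112, or 0.075 without BBA NC replicate 1). D630039A03Rik differed by -4.57 ± 0.65 (adjusted p = 0.0112, or 0.0854 without AAB NC replicate 1 and 0.416 without BBA NC replicate 2). Pkp4, a plakophilin gene, was 30.7 and 30.4 CPM in NC and 28.5, 34.4 and 33.5 CPM with IL-7 in BBA, with overlap, and 33.1 and 36.2 CPM in NC and 90.5 and 72.0 CPM with IL-7 in AAB. Its difference of -1.16 ± 0.18 (adjusted p = 0.0195) was lost without AAB NC replicate 1, either BBA NC library or AAB IL-7 replicate 2 (adjusted p = 0.0537 to 0.133). The other two, Mov10, an RNA helicase, and Suco, were outside the rule and named after their values were seen, with differences of -0.95 ± 0.15 and -0.76 ± 0.12.

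Higher in BBA than in AAB were Abcg3 and Trim21, both of which fell in AAB. Abcg3, a transporter gene, was 32.1 and 29.5 CPM in NC and 23.0, 20.3 and 26.5 CPM with IL-7 in BBA and 32.5 and 25.3 CPM in NC and 6.35 and 3.33 CPM with IL-7 in AAB. The responses of BBA and AAB differed by 2.17 ± 0.31 (adjusted p = 0.0112), lost without AAB NC replicate 1 or either BBA NC library (adjusted p = 0.0591 to 0.0708). Trim21, an interferon-induced antibody receptor and ubiquitin ligase gene, was 105 and 109 CPM in NC and 93.6, 95.6 and 85.5 CPM with IL-7 in BBA and 112 and 106 CPM in NC and 58.7 and 55.9 CPM with IL-7 in AAB. BBA minus AAB was 0.70 ± 0.12 (adjusted p = 0.0496), lost without any 1 of 8 of the 9 libraries (adjusted p up to 0.302, without AAB IL-7 replicate 3).

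**Figure D5:**
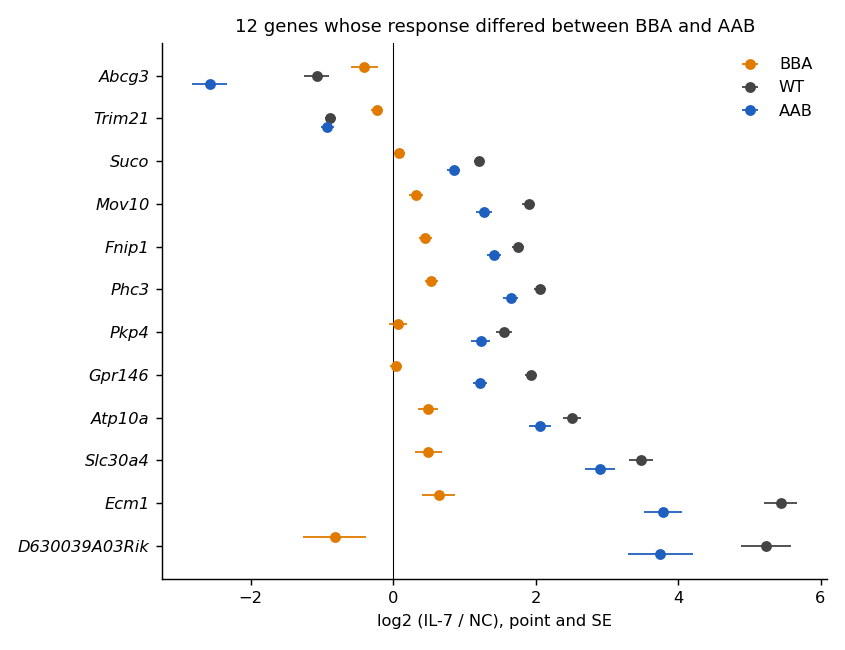
Log2 change with IL-7 over NC of the 12 genes whose response differed between BBA and AAB, with the estimate as a point and its standard error as a bar, for BBA (orange), WT (dark grey) and AAB (blue). The 10 genes at the bottom have BBA values from -0.82 to 0.64 and higher values in AAB and WT, and Abcg3 and Trim21 have lower values in AAB than in BBA.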

How the data were processed

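Naive CD4+ T cells were profiled by single-end poly(A) RNA-seq. The authors deposited raw counts per gene. The submitters' processing notes name TopHat2, Cufflinks, HTSeq and mm9, and the study's methods name mm10, so no coordinate was taken from the counts. Of 17 naive CD4+ columns 2 were left out for conflicting labels, the BBA library and 1 AAB library titled NC.

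The other 15 libraries, in 6 groups, were fitted together in edgeR 4.0.16 (R 4.3.3, TMM normalization, quasi-likelihood test, 9 residual degrees of freedom) on genes above 52.5 normalized counts in some library, a limit set by the Jaccard index between replicates. Calls required a fold change above 1.5 and a p under 0.05 after Benjamini-Hochberg adjustment. Positive values are higher with IL-7. Differences between genotypes were interaction contrasts in the same fit. On simulated counts for 10402 genes the BBA contrast recovered 177 of 200 changed genes and called 10 others, and BBA minus WT recovered 144 of 200 and called 4 others. The simulated libraries varied independently, without the sets high and low in Prnp or the replicate numbers. The changed genes had a mean of at least 50 counts. All their changes were set above the 1.5-fold limit and in the BBA IL-7 libraries alone. These rates therefore need not hold for the real libraries or for changes near that limit. Alternatives were other filters, size factors, DESeq2 1.42.0, blocks, thresholds and leaving out each library.

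Named genes were, for the BBA response, the 12 called genes a side with the largest change, no overlap between IL-7 and NC and a mean of at least 50 counts, and for each difference the 6 a side with the largest value and that mean. From each list up to 4 called members and all members that differed from WT were added. Promoters were searched for motifs with Python. The members and lists were chosen with earlier results of these data known. Results for some named genes are not reported here.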

Additional observations from a re-analysis of the deposited data

Results flagged for a closer look

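The response to IL-7 differed between BBA and WT, or between BBA and AAB, by the test of the difference itself for the genes below, each given as the log2 response of BBA minus that of the other genotype, where a negative value is a lower response in BBA. Among cytokine signalling and costimulation genes the differences were Cish (-1.98), Socs1 (-1.32), Socs3 (-0.95), Stat4 (-0.79), Il4ra (-1.35), Tnf (-3.15), Lta (-2.68), Tnfsf8 (-1.34), Tnfrsf4 (-1.98), Tnfrsf18 (-1.42) and Osm (-1.29). Among genes of growth, metabolism and the cell cycle they were Myc (-1.51), Rragd (-2.29), Fnip1 (-1.30), Cdk6 (-2.66), Dkc1 (-0.59), Srm (-0.89), Ctps (-0.81), Nars2 (-1.38), Ifrd2 (-0.75), Rgcc (-2.41), Naf1 (-1.62) and D030028A08Rik (-1.43). For the remaining genes below WT they were Myo6 (-2.19), D630039A03Rik (-6.05), Map6 (-5.77), Ecm1 (-4.80), Rgs1 (-4.10), 3110082I17Rik (-3.21), Slc30a4 (-2.98), Atp10a (-2.02), Gpr146 (-1.90), Pkp4 (-1.49), Phc3 (-1.52), Vim (-1.06) and Art2a-ps (-3.33).

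Above WT were Gbp10 (4.11), Klrd1 (3.24), Rtp4 (2.36), Irgm1 (1.95), St3gal6 (1.56), H2-T24 (1.41), Trim21 (0.65), Tob1 (1.20), Irf9 (0.83) and Ifi203 (0.85). Irf9, Rtp4, Ifi203, Gbp10, Irgm1 and Trim21 among them are interferon-induced genes. The naming rule took all list members that differed from WT, including those of the interferon lists. The makeup of these names is therefore no measure of the 22 genes (0.211% of those tested) above WT.

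Against AAB the response of BBA was lower for D630039A03Rik (-4.57), Ecm1 (-3.15), Slc30a4 (-2.41), Atp10a (-1.57), Gpr146 (-1.18), Pkp4 (-1.16), Phc3 (-1.12) and Fnip1 (-0.97) and higher for Abcg3 (2.17) and Trim21 (0.70). No explanation of these differences was tested. Many of the calls depended on single libraries or were lost among the libraries low in Prnp, as given above. The differences of Socs3, Tob1, Art2a-ps, D030028A08Rik, Ifi203, Map6 and Dkc1 from WT were each lost without any 1 of many libraries. So was that of Trim21 from AAB.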

How the results depend on the processing

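Counts of genes called are given for BBA, WT, AAB, BBA minus WT and BBA minus AAB, in that order, beside 1414, 1684, 1363, 115 and 12. Bonferroni adjustment gave 280, 505, 242, 30 and 5, a limit of 2-fold 578, 760, 607, 72 and 8, and a test against the 1.5-fold limit 357, 654, 396, 38 and 3. Without the filter on low counts 193 and 36 differences from WT and AAB were called, and DESeq2 gave 233 and 52. The 9 libraries of the contrast alone gave 3 differences from AAB. DESeq2 size factors, filterByExpr and the newer edgeR fit kept all 5 counts within 1.5 times. A term for the libraries high in Prnp gave 41 differences from AAB, and the 9 libraries low in Prnp gave 811, 1071, 930, 31 and 1, both chosen after seeing the data.

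Same-numbered libraries of 1 genotype correlated between NC and IL-7 at -0.00703 to 0.545, with 4 of 6 over 0.1, and those of 1 culture correlated between genotypes at 0.0943 to 0.450, with 12 of 13 over 0.1. The correlations are of deviations from the group mean, so the pairs are not independent. In a group of 2 libraries the deviations are opposites, and BBA NC against AAB NC gave 0.292 for both pairs. Not every pair passed 0.1, and the main fit used the numbers neither as pairs nor as batches. Same-numbered libraries of 1 culture nonetheless varied together in most cases, and the p-values of the main fit do not account for it. A replicate block on the number shared by all genotypes gave 22 differences from AAB and a block within each genotype 1, Slc30a4, and the other counts stayed within 1.5 times.

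Leaving out each library in turn gave 1017 to 1567 calls in BBA, 1516 to 1657 in WT, 981 to 1321 in AAB, 81 to 152 differences from WT and 6 to 22 from AAB, the last 6 without BBA NC replicate 1, 7 without AAB NC replicate 1, 20 without AAB IL-7 replicate 2 and 22 without BBA IL-7 replicate 2. Over the named genes and all alternatives, 322 values of the BBA response, 196 of the difference from WT and 59 of that from AAB lost their call. A call was gained by 18 values of the BBA response. No value called in the main fit or in the alternative changed sign between them. Some values called in neither did change sign, such as Cish in BBA (-0.18 to 0.50 over the alternatives). The cause of these changes was not tested. With 2 NC libraries in BBA, 1 library decides many calls near the threshold.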

Other observations

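The BBA library titled NC replicate 3, which other labels give as treated with IL-7, entered no comparison. Scaled together with the other naive CD4+ libraries, it held Bcl2 at 147.5 CPM, Cish at 11.5 CPM, Myc at 137 CPM and Fos at 285 CPM. The BBA NC libraries held Bcl2 at 173 and 195 CPM, Myc at 90.6 and 138 CPM and Fos at 97.0 and 307 CPM, and the BBA IL-7 libraries held Bcl2 at 757 to 900.0 CPM, Myc at 48.3 to 66.9 CPM and Fos at 2.74 to 7.04 CPM. Trim12a was at 73.9 CPM and Gm1966 at 514 CPM in this library, against 1.86 and 1.08 CPM and 39.1 and 51.8 CPM in the BBA NC libraries. The AAB library with the same conflict held Bcl2 at 251 CPM and Fos at 328 CPM. On the first principal component, with 44.7% of the variance, these libraries stood at -23.3 and -24.7, the NC libraries at -26.2 to -20.5 and the IL-7 libraries at 17.9 to 32.3.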
